A study of Vitis vinifera with 11 samples.

Results

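Transcripts of 5 regulators of flowering were followed across the inflorescences, tendrils and leaves of grapevine (Vitis vinifera): FT, MADS8, AP2, FCA and MFT. They were taken by gene number from the 25771 genes listed in the deposited tables: 100232994 (FT), 100232995 (MADS8, the grapevine SOC1), 100268051 (AP2), 100255122 (FCA) and 100233011 (MFT). FT, MADS8, AP2 and FCA passed the filter on low values and were tested, and MFT, with 19 reads in all libraries together, did not.

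Inflorescences came from the picovine lines 06C021V0046 and 06C008V0003, with 1 library of each line at nodes 1, 2 and 3 counted from the shoot apex (6 libraries). The tendril libraries were of the control Pinot Meunier L2, with 1 library at each of the same nodes (3 libraries). Leaves of the nodes had been pooled before sequencing, with 1 pool of 06C021V0046 and 1 of Pinot Meunier L2. All plants were grown in a controlled environment under long warm days and short cooler nights. Picovines are dwarf vines, and dwarf vines of this kind are known to carry an altered gibberellin response gene and to form inflorescences where other vines form tendrils. The labels give no allele for either line. These limits follow from the design: the replicates of an inflorescence node are different lines, each tendril node has a single library, and inflorescences and tendrils share no genotype. The sample labels put both leaf pools opposite inflorescences. Of the control vine, however, the protocol lists tendrils and no inflorescences, so where its leaves sat is not settled. The protocol also writes the first picovine line with another prefix than the sample labels, which were followed here. Nothing in the labels says that the libraries of a line came from separate plants. No genotype has more than 1 library of an organ and node. The organ p-values therefore measure the spread between the lines and between the leaf pools, together with departures from a straight course over nodes. The p-values between the lines measure how the line difference varies over the nodes. Neither is a spread between plants of 1 genotype.

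In Arabidopsis, FT is made in leaves in response to day length and moves to the shoot apex, where it switches on meristem identity genes together with a partner protein. SOC1, a MADS-box transcription factor, is one of its early targets there and also receives the gibberellin and autonomous signals. AP2 represses flowering and specifies the outer floral organs, FCA is an RNA-binding protein of the autonomous pathway that promotes flowering, and MFT, of the same protein family as FT, is known mainly from seed germination. The grapevine carries a tendril or an inflorescence opposite many of its leaves, and both arise from the same kind of uncommitted primordium.

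Levels are given as RPKM, the reads per kilobase of gene and per 1e6 reads, which corrects for gene length and so allows levels of different genes to be compared. Depth, worked back from the RPKM values, ran from 7.36 to 15.18 M reads (M, 1e6). The inflorescence libraries were described with 7 floral organ identity genes, all of them measured. The marker lists were written with earlier results of these data known, so they are no independent check of identity. Summed RPKM of the floral list lay between 1194 and 2237 in inflorescences, 0.952 and 1.71 in tendrils, and 3.86 and 5.51 in leaves. MADS2 and AP3 of that list had no read in either leaf pool. Of 8 green tissue markers 2 were matched, PSBP1 and NDHM, and their summed RPKM ran from 108 to 341 in inflorescences, from 186 to 877 in tendrils and from 373 to 664 in leaves. The floral markers were high in the organ where FT was high. Of the green markers, NDHM followed the order of MADS8, with averages of 7.93 RPKM in inflorescences, 9.97 in tendrils and 31.9 in leaves. PSBP1 did not, with 177, 598 and 487 RPKM in the same organs. The part of either list in the differences described here was not tested. In these bulk libraries fewer cells of a type and less RNA per cell cannot be told apart.

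FT was abundant in inflorescences, low in tendrils and without a read in leaves. In the inflorescences of 06C021V0046 it stood at 60.6, 74.6 and 113.7 RPKM at nodes 1, 2 and 3. In those of 06C008V0003 it stood at 34.4, 45.2 and 73.2 RPKM. The tendrils of Pinot Meunier L2 had 6.16, 4.72 and 12.88 RPKM at the same nodes. The lowest inflorescence library lay above the highest tendril library, and all tendril libraries lay above the leaf pools. These tendril levels rest on 51, 29 and 163 reads, and the inflorescence levels on 418 to 1360 reads.

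The summed reads of FT gave a ratio of 7.48 for inflorescences over tendrils, with an exact 95% counting interval of 6.57 to 8.54. Both leaf pools had 0 reads. Against the floor of 3 reads over both pools, FT was at least 451-fold higher in inflorescences and at least 60.4-fold higher in tendrils. Intervals and floors of this kind cover counting error only, since reads without molecular identifiers are not independent molecules. Node by node, the mean of both lines was 7.72 times the tendril level at node 1, 12.7 times at node 2 and 7.26 times at node 3. Each picovine line stood above the tendrils by itself, with a mean of 83.0 RPKM in 06C021V0046 and of 50.9 RPKM in 06C008V0003, against 7.92 ± 4.35 in tendrils (SD, n = 3).

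**Figure D1:**
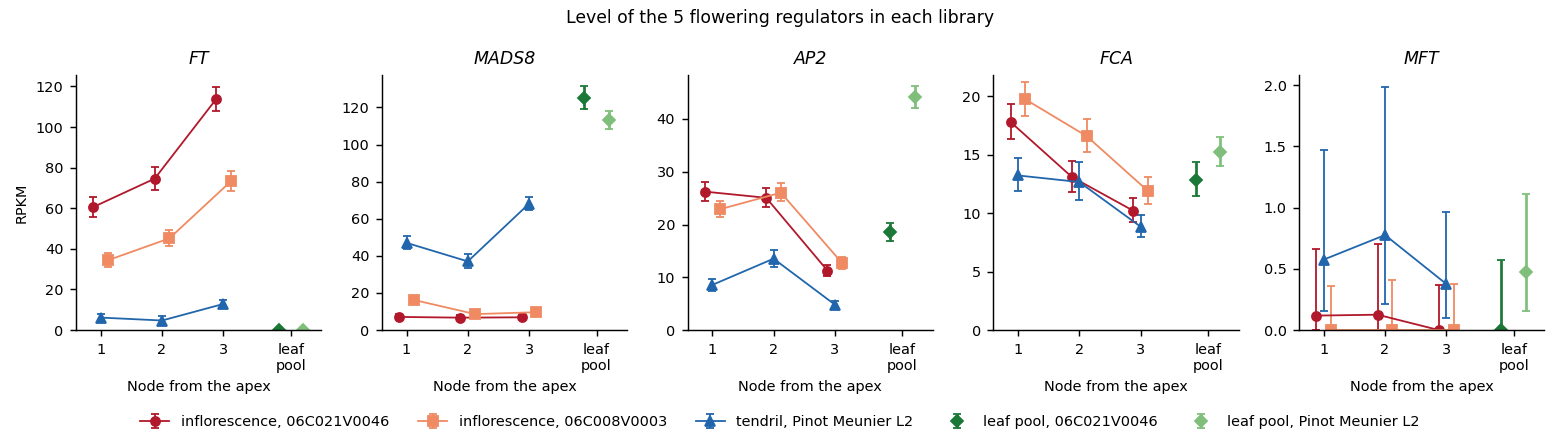
Level of FT, MADS8, AP2, FCA and MFT in RPKM (vertical axis, a separate scale for each gene) at nodes 1, 2 and 3 from the apex and in the leaf pools (horizontal axis). Each point is 1 library, bars are 95% counting intervals, and lines join the nodes of 1 genotype; FT is highest and MADS8 lowest in inflorescences, with 0 RPKM of FT and over 113 RPKM of MADS8 in both leaf pools.

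The organ difference of FT was larger than the spread between the libraries in each comparison. Changes were tested with limma on log2(RPKM + 1) over 19761 genes, with Benjamini-Hochberg adjustment over all of them, and this scale understates changes of low genes. FT was higher in inflorescences than in tendrils by 2.94 ± 0.29 (log2 change ± SE, adjusted p = 8.95e-05), higher in inflorescences than in leaves by 5.99 ± 0.34 (adjusted p = 2.75e-06), and higher in tendrils than in leaves by 3.05 ± 0.38 (adjusted p = 0.000667). The fitted changes against leaves depend on the constant added before the logarithm, since leaves had no read: that of inflorescences ran from 3.76 to 10.25 and that of tendrils from 1.32 to 7.20 over the alternatives run, all of them past the threshold. The comparisons share libraries and are not independent of each other. With genotype as a block, only the leaf pools connect the inflorescences with the tendrils. The change of FT between these organs was then 3.29 with an adjusted p of 0.0559, short of the threshold of 0.05. Both changes of FT against leaves kept the call with the block, at adjusted p = 0.000315 and 0.0044. Within 1 genotype, the inflorescences of 06C021V0046 averaged 83.0 RPKM and its leaf pool 0, and the tendrils of Pinot Meunier L2 averaged 7.92 RPKM and its leaf pool 0.

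MADS8 had the opposite order, with the highest level in leaves, an intermediate one in tendrils and the lowest in inflorescences. The leaf pools held 125.1 RPKM in 06C021V0046 and 113.2 RPKM in Pinot Meunier L2, a ratio of 1.11 (95% counting interval 1.04 to 1.18). In tendrils it stood at 47.0, 37.0 and 68.1 RPKM at nodes 1, 2 and 3. The groups did not overlap: the lowest leaf pool was above the highest tendril library, and the lowest tendril library above all inflorescences.

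Inflorescences of 06C021V0046 had 7.11, 6.71 and 6.89 RPKM of MADS8 at nodes 1, 2 and 3. Those of 06C008V0003 had 16.3, 8.62 and 9.64 RPKM. The library of 06C008V0003 at node 1 thus stood apart from the other 5, which lay between 6.71 and 9.64 RPKM. MADS8 was lower in inflorescences than in tendrils by 2.36 on the log2 scale (-2.36 ± 0.27 SE, limma, adjusted p = 0.000231) and lower than in leaves (-3.62 ± 0.32, adjusted p = 8.04e-05). Tendrils were lower than leaves by a smaller amount (-1.26 ± 0.35, adjusted p = 0.0422).

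The call of MADS8 between tendrils and leaves was the least firm of these. It ended with the genotype block (-1.19, adjusted p = 0.12), with median-ratio scaling (-1.04, adjusted p = 0.0752) and with only tendrils and leaves in the fit (adjusted p = 0.146). It also ended without either leaf pool and without any single tendril library, while the change kept its sign. Leaving out any inflorescence library of node 2 or 3 ended it as well, with adjusted p from 0.0537 to 0.0612. Without the tendrils of node 1 or of node 3 both runs gave -1.66, since the tendril mean is then the node 2 library alone. Between inflorescences and tendrils the block gave -2.81 with an adjusted p of 0.0797, and between inflorescences and leaves -4.00 with 0.002. Within 06C021V0046, leaves held 18.1 times the mean MADS8 level of the inflorescences (125 against 6.90 RPKM), and within Pinot Meunier L2 leaves held 2.23 times that of the tendrils (113 against 50.7 RPKM).

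Against all genes tested, differences between these organs were common. Of the 19761 genes, 34.1% were called between inflorescences and tendrils, 12.9% between inflorescences and leaves and 12.6% between tendrils and leaves. Of the 4 tested regulators, 3 (FT, MADS8 and AP2) were called in the first, 2 (FT and MADS8) in the second, and 3 (FT, MADS8 and AP2) in the last. Libraries did not overlap for 27.4% of genes between inflorescences and tendrils, for 23% between inflorescences and leaves and for 37.8% between tendrils and leaves. FT and MADS8 did not overlap in any of the 3 comparisons, AP2 did not between tendrils and leaves, and FCA overlapped in all. With the genotype block only 77 genes in all were called between inflorescences and tendrils, none of them a regulator described here. The median of all genes was itself shifted by 0.20 on the log2 scale toward inflorescences over tendrils and by -0.14 for tendrils against leaves, and these shifts were 0.04 and 0.05 after quantile and 0.00 and 0.03 after median-ratio scaling.

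**Figure D2:**
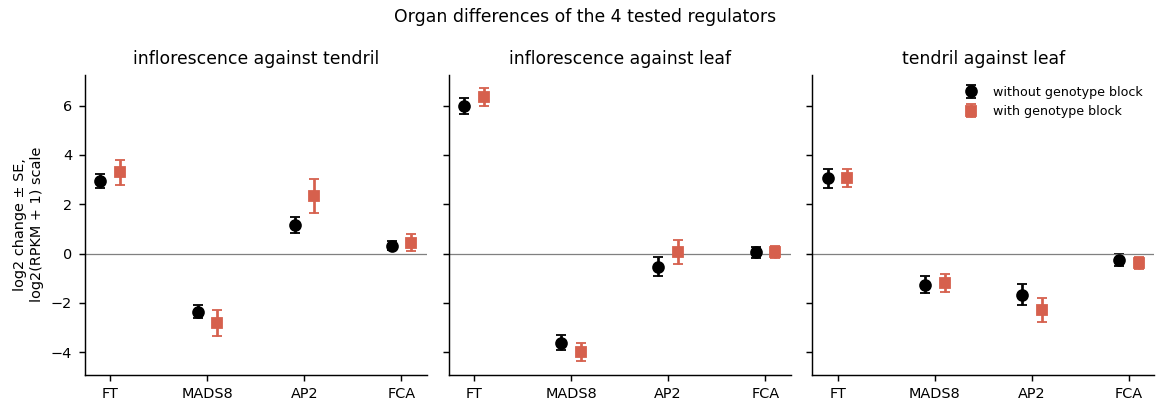
Log2 change on the log2(RPKM + 1) scale (vertical axis) of FT, MADS8, AP2 and FCA (horizontal axis) in inflorescence against tendril, inflorescence against leaf, and tendril against leaf, with bars of 1 SE. Black circles are without and red squares with the genotype block; FT lies above 0 and MADS8 under 0 in all 3 panels, and AP2 moves from -0.53 to 0.07 with the block in inflorescence against leaf.

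Set against each other, FT and MADS8 placed the 11 libraries in 3 separate groups. The RPKM ratio of FT to MADS8 was 8.53, 11.1 and 16.5 at nodes 1, 2 and 3 in the inflorescences of 06C021V0046, and 2.12, 5.24 and 7.59 in those of 06C008V0003. In tendrils it was 0.131, 0.128 and 0.189, and in both leaf pools 0. All inflorescence libraries thus held more FT than MADS8, and all tendril and leaf libraries more MADS8 than FT. In both lines the ratio was lowest at node 1 and highest at node 3.

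**Figure D3:**
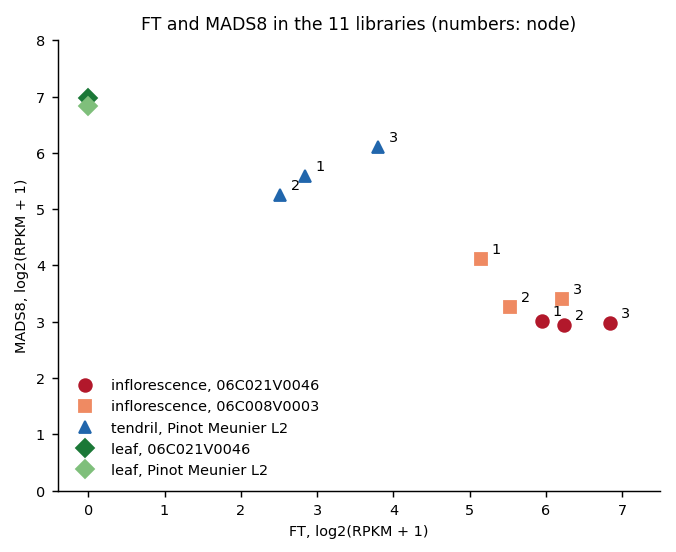
Level of MADS8 (vertical axis) against that of FT (horizontal axis), both as log2(RPKM + 1), with 1 point per library and the node number beside it. The 6 inflorescence libraries lie at high FT and low MADS8, the 3 tendril libraries at low FT and higher MADS8, and the 2 leaf pools at 0 FT and the highest MADS8.

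FT was higher at each successive node in both picovine lines. From node 1 to node 2 it was 1.23 times higher in 06C021V0046 (95% counting interval 1.10 to 1.37) and 1.31 times in 06C008V0003 (1.149 to 1.499). From node 2 to node 3 the ratios were 1.52 (1.39 to 1.67) and 1.62 (1.45 to 1.81). Over the whole course, node 3 held 1.87 and 2.13 times the FT level of node 1, and no interval reached 1.

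In tendrils the first step of FT went the other way and was within counting error, at 0.767 (0.469 to 1.23, from 51 and 29 reads). The next step was 2.73 (1.83 to 4.20), so that node 3 held 2.09 times the level of node 1 (1.52 to 2.92). Each tendril node is 1 library, so these ratios have no replicate check. Both lines also moved in 1 direction at both steps for 41.3% of the genes tested, so the ordered course of FT is shared with many genes.

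The fitted slopes per node did not pass the threshold for FT in either organ. In inflorescences the slope of FT was 0.49 ± 0.21 on the log2 scale per node (limma, adjusted p = 0.124; 95% interval 0.03 to 0.95), and it was not called in any alternative run (lowest adjusted p = 0.0601, with the genotype block). In tendrils it was 0.48 ± 0.29 (adjusted p = 1; 95% interval -0.17 to 1.12). The slopes of the organs differed by 0.01 ± 0.36 (adjusted p = 1), with a 95% interval of -0.78 to 0.80 that allows differences larger than either slope. Of all genes, 15% were called for a slope in inflorescences, with none of the 4 tested regulators among them. The tendril slope was called by limma for 0% of genes, with 971 genes at an unadjusted p under 0.05, and the difference of slopes for 0.0152% (3 genes).

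The course of MADS8 differed between the series. In 06C021V0046 its nodes did not differ beyond counting error, with node 3 at 0.970 times node 1 (0.752 to 1.25). In 06C008V0003 it was lower at node 2 than at node 1 (ratio 0.530, 0.435 to 0.645) and close to that level at node 3 (ratio to node 2 of 1.12, 0.898 to 1.39). In tendrils it was 0.787 times as high at node 2 as at node 1 (0.691 to 0.896) and then 1.84 times as high at node 3 as at node 2 (1.64 to 2.07). In tendrils MADS8 and FT were thus both highest at node 3, and the lower FT level at node 2 than at node 1 was within counting error. In inflorescences FT was highest at node 3 in both lines. MADS8 was highest at node 1 beyond counting error only in 06C008V0003, a single library. The MADS8 slopes were -0.18 ± 0.19 in inflorescences (limma, adjusted p = 0.534) and 0.26 ± 0.27 in tendrils (adjusted p = 1), and their difference was -0.45 ± 0.34 (adjusted p = 1; 95% interval -1.19 to 0.30). Without the node 1 library of 06C008V0003 the inflorescence slope was 0.09, and without the tendril library of node 3 the tendril slope was -0.34 and the difference 0.15.

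The picovine lines differed in FT at every node. 06C021V0046 held 1.76 times the FT of 06C008V0003 at node 1 (95% counting interval 1.55 to 2.00), 1.65 times at node 2 (1.47 to 1.86) and 1.55 times at node 3 (1.43 to 1.69). A difference of at least 1.5-fold in 1 direction at all nodes was found for 9.55% of genes tested. With node as a factor in the 6 inflorescence libraries, FT was higher in 06C021V0046 by 0.71 ± 0.10 (limma, adjusted p = 0.00892), in a comparison that called 19.7% of genes. This call ended with no filter on low values (adjusted p = 0.0664, 11 genes called in all) and without the node term (adjusted p = 0.599, 13 genes called).

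MADS8 was lower in 06C021V0046 at each node, with ratios of 0.437 (0.351 to 0.542), 0.778 (0.600 to 1.004) and 0.715 (0.569 to 0.897). Being on the same side at all nodes held for 60.7% of genes. The fitted difference was -0.61 ± 0.19 (limma, adjusted p = 0.0622). It was -0.38 without either node 1 library (adjusted p = 0.175 and 0.182), and it was called with voom on whole reads (-0.71, adjusted p = 0.0243) and without either node 3 library (-0.71, adjusted p = 0.0331 and 0.0363). Over all alternatives the adjusted p ran from 0.0243 to 0.581, and the sign stayed the same. So the line with more FT had less MADS8, with the MADS8 difference short of the threshold and largest at node 1. From a single pair of lines this is a description, and a link between the genes was not tested. AP2 (-0.01 ± 0.13, adjusted p = 0.974) and FCA (-0.22 ± 0.13, adjusted p = 0.238) were not called between the lines, with 95% intervals of -0.31 to 0.30 and -0.52 to 0.08.

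AP2 was lower at node 3 than at node 2 in every series. Inflorescences of 06C021V0046 had 26.2, 25.1 and 11.3 RPKM of AP2 at nodes 1, 2 and 3, and those of 06C008V0003 had 22.9, 26.0 and 12.7 RPKM. Tendrils had 8.56, 13.5 and 4.83 RPKM. In all 3 series the lowest level was at node 3, less than 0.5 of that at node 2.

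From node 2 to node 3 the AP2 ratios were 0.449 (0.398 to 0.506) in 06C021V0046, 0.487 (0.435 to 0.545) in 06C008V0003 and 0.357 (0.295 to 0.431) in tendrils. A level at least 2-fold lower at node 3 in all 3 series was found for 6.1% of genes tested, and the same direction in all 3 for 55.4%. FCA (all lower) and FT (all higher) were also among the latter. From node 1 to node 2 the AP2 ratios were 0.955 (0.865 to 1.06), 1.14 (1.04 to 1.25) and 1.58 (1.32 to 1.90), so the first step had no common direction. The AP2 slope, which averages both steps, was -0.49 ± 0.24 in inflorescences (limma, adjusted p = 0.171) and -0.36 ± 0.33 in tendrils (adjusted p = 1). With only the inflorescence libraries in the fit the former was called, at the same value with adjusted p = 0.0423.

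Between organs, AP2 was higher in inflorescences than in tendrils by 1.15 ± 0.33 (limma, adjusted p = 0.0234), with inflorescences 1.89 to 2.87 times the tendril level of the same node. Over all nodes the groups overlapped, since tendrils at node 2 stood above both inflorescence libraries of node 3. The call ended with median-ratio scaling (0.93, adjusted p = 0.0508) and with the genotype block (2.35, adjusted p = 0.237). It also ended when the tendrils of node 1 or of node 3 were left out. Both of these runs gave 0.51, since the tendril mean is then the node 2 library alone. AP2 was also lower in tendrils than in leaves (-1.67 ± 0.43, adjusted p = 0.0287), with no overlap, and the block left that call (-2.28, adjusted p = 0.0333). It ended with only tendrils and leaves in the fit (adjusted p = 0.18) and without the leaf pool of Pinot Meunier L2 (-1.07). With the tendrils of node 1 or 3 left out it also ended, at -1.03 in both runs, again with the node 2 tendrils alone as the mean.

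The leaf pools differed in AP2 more than in any other regulator with leaf reads above the floor in both pools. AP2 stood at 18.6 RPKM in leaves of 06C021V0046 and at 44.2 RPKM in those of Pinot Meunier L2, a ratio of 0.420 (0.378 to 0.466) from 1 library each. Between inflorescences and leaves AP2 was not called (-0.53 ± 0.38, limma, adjusted p = 0.408; 95% interval -1.38 to 0.32), and the pools lay inside and above the inflorescence range. Without the Pinot Meunier L2 pool the change was 0.08 and with the block 0.07, the reverse sign. Within 06C021V0046 the inflorescence mean was 1.12 times the leaf level, and within Pinot Meunier L2 leaves held 4.93 times the tendril mean.

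FCA varied least among the tested regulators. In inflorescences it stood at 17.8, 13.1 and 10.2 RPKM at nodes 1, 2 and 3 in 06C021V0046 and at 19.8, 16.6 and 11.9 RPKM in 06C008V0003. In tendrils it stood at 13.2, 12.7 and 8.86 RPKM, and in the leaf pools at 12.9 and 15.3 RPKM. The 3 organs overlapped, and no difference between organs was called: the changes were 0.32 ± 0.19 for inflorescences against tendrils (limma, adjusted p = 0.203), 0.05 ± 0.22 against leaves (adjusted p = 0.912) and -0.27 ± 0.24 for tendrils against leaves (adjusted p = 0.538). Their 95% intervals in this fit, -0.09 to 0.74, -0.43 to 0.53 and -0.81 to 0.26, do not include a 2-fold difference. With the genotype block the changes were 0.44 ± 0.36, 0.05 ± 0.25 and -0.39 ± 0.25 in the same order, none called. The first of these does not exclude a 2-fold difference.

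Along the nodes FCA was lower at each step in both lines and in tendrils. Node 3 held 0.574 times the FCA level of node 1 in 06C021V0046 (0.503 to 0.654), 0.603 times in 06C008V0003 (0.535 to 0.679) and 0.669 times in tendrils (0.575 to 0.778). The first step in tendrils was within counting error (0.957, 0.810 to 1.13). The slope was -0.36 ± 0.13 in inflorescences (limma, adjusted p = 0.0883) and -0.27 ± 0.19 in tendrils (adjusted p = 1). With only inflorescences in the fit the first of these was called, at adjusted p = 0.0453. FT and FCA thus ran in opposite directions over the inflorescence nodes of both lines, in steps whose slopes did not pass the threshold in the fit over all libraries.

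MFT was close to the limit of detection throughout. The 6 inflorescence libraries held 2 reads in all, 1 each at nodes 1 and 2 of 06C021V0046. Each of the 3 tendril libraries held 4 reads (0.576, 0.776 and 0.376 RPKM at nodes 1, 2 and 3). The Pinot Meunier L2 leaf pool held 5 reads (0.477 RPKM) and that of 06C021V0046 none. All but 2 of the 19 reads were therefore in Pinot Meunier L2 libraries, and organ and genotype cannot be told apart for them.

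The MFT read ratio of inflorescences over tendrils was 0.068, with an exact 95% counting interval of 0.007 to 0.306, and that of inflorescences over leaves was 0.122 (0.012 to 0.744). Tendrils and leaves did not differ beyond counting error (ratio 1.79, 0.587 to 6.48). MFT shares its protein family with FT. Its reads lay mainly in the tendrils and the leaf pool of Pinot Meunier L2, where FT was low or had no read. Within 06C021V0046 it was otherwise. The leaf pool of that line held no read of either gene, and its inflorescences, high in FT, held the only MFT reads outside Pinot Meunier L2. No test over replicates was made at this depth.

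The other genes of the flowering pathway were read from a list of 92 symbols, of which 9 were matched and tested. The list was written with earlier results of these data known, so its counts here and below are descriptions only. Between inflorescences and tendrils 1 of the 9 was called higher and 4 lower, beside 22.5% and 11.6% of all genes tested (16.7% and 15.5% after quantile, 15.8% and 16.7% after median-ratio scaling), with a median change of -0.43 against 0.20 for all genes tested. GA20ox1, an enzyme of gibberellin synthesis, stood between 0.596 and 33.7 RPKM in inflorescences and at no more than 0.172 in tendrils (2.95 ± 0.32, limma, adjusted p = 0.000155). GA2ox6, of the class of enzymes that inactivate gibberellins, had at most 0.359 RPKM in inflorescences and 2.30 to 17.2 in tendrils (-2.43 ± 0.29, adjusted p = 0.000266). The size of both changes depends on the constant added before the logarithm. At the constants 5 and 0.1 it was 1.53 and 5.13 for GA20ox1, and -1.06 and -4.71 for GA2ox6.

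VVGAI1, the DELLA repressor of the gibberellin response, stood between 0.991 and 7.99 RPKM in inflorescences and at 38.6, 68.3 and 3.21 RPKM in tendrils at nodes 1, 2 and 3 (-2.69 ± 0.61, limma, adjusted p = 0.00801). Its node 3 tendril level was inside the inflorescence range. GA3ox1, which makes bioactive gibberellins, had 15.2 to 32.8 RPKM in inflorescences and 43.2 to 62.3 in tendrils (-1.17 ± 0.21, adjusted p = 0.0025). VFUL-L, a FRUITFULL-like MADS-box gene, was the other lower one (-1.08 ± 0.24, adjusted p = 0.00773). With the genotype block none of the 9 was called. The change was then 2.07 ± 0.57 for GA20ox1 (limma, adjusted p = 0.212), -1.86 ± 0.65 for GA2ox6 (0.332) and -0.21 ± 1.28 for VVGAI1 (0.972). It was -0.89 ± 0.41 for GA3ox1 (0.475) and -2.24 ± 0.37 for VFUL-L (0.0613). The estimate of VVGAI1 was near 0, but its SE is too wide to set it apart from the -2.69 without the block. That of VFUL-L was larger than without the block. Leaving out the tendril library of node 1 or of node 3 makes the tendril mean the node 2 library alone. Both runs gave the same changes: -4.30 for VVGAI1, -0.87 for GA3ox1 and -1.01 for VFUL-L. GA3ox1 and VFUL-L lost their calls there.

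Against leaves, 4 of the 9 list genes were higher in inflorescences and 4 in tendrils, and none was lower in either. These were AP1, VFUL-L and GA3ox1 in both, with GA20ox1 in inflorescences and GA2ox6 in tendrils, and 3 were called in each with the genotype block. Of all genes tested, 5.39% were higher and 7.55% lower in inflorescences against leaves. In tendrils against leaves 2.89% were higher and 9.71% lower (4.91% and 6.69% after quantile, 4.6% and 7.79% after median-ratio scaling). For the list, the median change was 0.18 in inflorescences against leaves (0.01 for all genes) and 1.75 in tendrils against leaves (-0.14 for all genes). AP1, named after its values were seen as a meristem identity gene that FT activates in Arabidopsis, had 118 to 169 RPKM in inflorescences and 119 to 298 in tendrils, against 3.04 and 0.700 in the leaf pools. Between inflorescences and tendrils AP1 was not called (-0.35 ± 0.30, limma, adjusted p = 0.385), and the libraries overlapped. TFL1A, of the FT protein family and a repressor of flowering in that family, stayed under 2 RPKM in all libraries and was not called.

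Over the inflorescence nodes 1 of the 9 list genes rose and 1 fell, beside 6.34% and 8.64% of all genes tested. GA20ox1 rose by 2.16 ± 0.23 per node (limma, adjusted p = 0.00131). PHYA, a phytochrome light receptor and named after its values were seen, fell (-0.80 ± 0.21, adjusted p = 0.0319). The PHYA call ended without any one of 5 inflorescence libraries (adjusted p from 0.0523 to 0.197) and with no filter (0.0529). None of the 9 was called for the tendril slope, the difference of slopes or the difference between the lines in the fit described above. Without the tendril library of node 1, 1 was called higher and 1 lower for the tendril slope. Between the lines 1 was called higher and 2 lower with voom, 1 higher and 1 lower without either node 1 library, and 1 higher with quantile or median-ratio scaling.

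**Figure D4:**
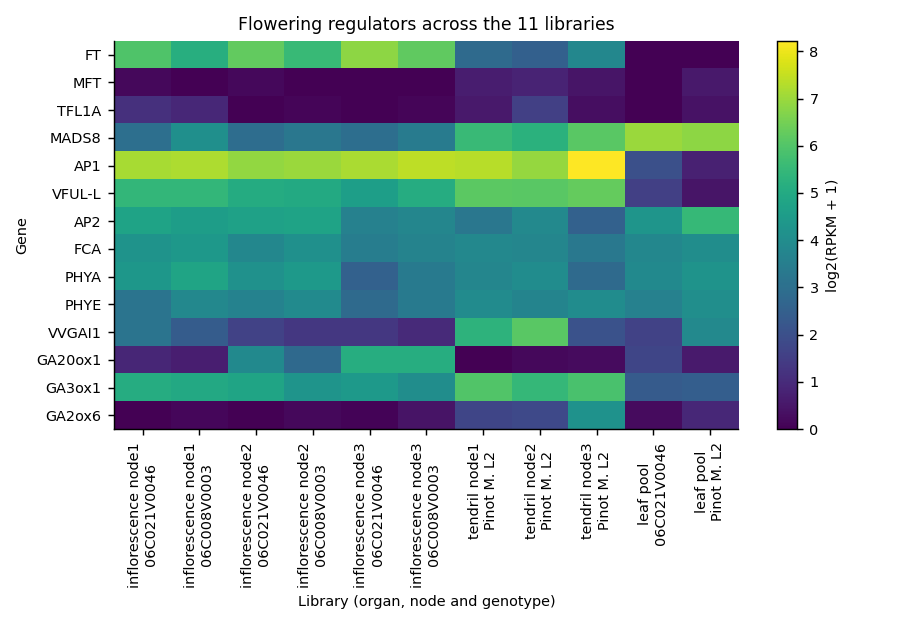
Level of the 5 regulators and the 9 matched genes of the flowering list (vertical axis) in the 11 libraries (horizontal axis), as log2(RPKM + 1) in colour. FT and MADS8 run in opposite directions from inflorescences to leaves, AP1 and VFUL-L are high in both inflorescences and tendrils, and MFT and TFL1A are near 0 throughout.

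The genes whose level was most like that of each regulator were ranked by Pearson correlation of log2(RPKM + 1) over the 11 libraries, among 251 named genes with at least 5 RPKM in an organ. The libraries share organ, genotype and node, so a high value can come from the organ difference alone, and the values are descriptions. For FT the 5 highest were MADS3 (0.95), ACBP (0.95), IFRL6 (0.93), CBL05 (0.91) and MADS2 (0.89). MADS3, a floral MADS-box gene, came closest in level too, with 94.7 ± 19.6 RPKM in inflorescences (SD, n = 6), 10.6 ± 4.24 in tendrils (n = 3) and 0.486 ± 0.552 in leaves (n = 2), beside 67.0 ± 27.8, 7.92 ± 4.35 and 0 for FT. MADS2, a SEPALLATA-type floral gene, had 197 ± 19.9 RPKM in inflorescences but only 0.184 ± 0.186 in tendrils, so it lacks the intermediate tendril level of FT.

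For MADS8 the correlations were lower: WKRY (0.85), VVGT6 (0.81), ZEP (0.80), MYB30 (0.77) and CIPK10 (0.77). WKRY, a transcription factor, had 12.2 ± 3.56 RPKM in inflorescences (n = 6), 22.1 ± 2.67 in tendrils (n = 3) and 31.7 ± 4.74 in leaves (n = 2), the order of MADS8 over a narrower range. MADS8 over the same organs averaged 9.20 ± 3.64, 50.7 ± 15.9 and 119 ± 8.41 RPKM. For AP2 the 3 highest were MLO6 (0.90), FCA (0.76) and GS1 (0.76), and for FCA they included PHYA (0.92) and RBR (0.91), the retinoblastoma-related gene. The highest for MFT were MYB12 (0.95), PIP2;3 (0.94) and POD1 (0.93), where the 19 reads of MFT make the ranking a record of a few reads.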

How the data were processed

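The authors deposited 1 RPKM value per gene and library for 25771 gene numbers, the unit being taken from the file labels. The mRNA was sequenced from 1 end of the fragments on an Illumina platform, per the labels' protocols. The submitters' processing notes name Bowtie 0.12.7 and TopHat 1.2.0. Build, annotation, counting and the use of strand are not given in the sources used here, so no positions are printed and no sequence is shown. Names came from the RefSeq table of ASM3070453v1, used for names only, which held 18647 of the gene numbers (72.4%), 309 of them with a name.

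RPKM values were whole multiples of the worth of 1 read, and whole gene lengths fixed the depth: 24360 of 24365 genes above 0 gave whole reads in every library (99.98%, tolerance 0.01 read). The inflorescence libraries were 11.36 to 14.55 M reads deep (M, 1e6), the tendril libraries 7.36 to 15.18 M, and the leaf pools 9.21 and 14.99 M. Counting intervals are exact, at the 95% level, and conditional on both reads summed.

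The main test was limma 3.58.1 (R 4.3.3, eBayes with trend, two-sided) on log2(RPKM + 1) of the 19761 genes that reached 1 RPKM in 2 or more libraries. The model took in all 11 libraries and held organ means at node 2 and a node slope in inflorescences and in tendrils (6 residual and 4.54 prior degrees of freedom). The lines were compared in the 6 inflorescence libraries with node as a factor (2 residual degrees of freedom). Adjustment was by Benjamini-Hochberg over all genes tested, with a threshold of 0.05. The reading of depth and the fit were tested on simulated data. Alternatives changed the pseudocount (0.1 and 5), the filter, the scaling, the libraries and the node term, added the genotype block, or used voom on the whole reads. Within the inflorescences the replicate numbers stand for the lines, which gives the pairing there. The difference between the lines correlated across genes at 0.629 between nodes 1 and 2, 0.546 between 1 and 3, and 0.689 between 2 and 3. Across organs the same replicate number can stand for different genotypes, so the block followed the genotype labels.

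Named genes were the 5 regulators in every comparison, the genes most like each of them, and up to 3 called flowering-list genes each way between inflorescences and tendrils. Of the flowering list, AP1, VFUL-L, TFL1A and, for its slope, PHYA were named beyond this rule. One gene that this rule names is not reported here. The regulators, the lists and the rule were chosen with earlier results of these data known. The list symbols FLC, MADS4, TFL1B and TFL1C, among others, had no match.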

Additional observations from a re-analysis of the deposited data

Results flagged for a closer look

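FT differed between organs in its first step along the shoot. From node 1 to node 2 both picovine lines were higher at node 2 and the tendril library was lower, and the mean log2 step of the lines exceeded that of the tendrils by 0.66. The difference was not tested, since each tendril node has 1 library, and the tendril step rests on 51 and 29 reads with a counting interval that includes no change (0.469 to 1.23).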

How the results depend on the processing

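Of 532 values of FT, MADS8, AP2 and FCA under the alternatives, 479 kept their direction and side of the threshold, 26 lost a call, 5 gained one and 22 changed sign. The kept values include changes that were not called in either fit. Some settings also leave an estimate as it was by construction, so these counts are no measure of stability. FT and MADS8 kept their direction between organs in every setting run.

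With the replicate block (genotype), inflorescences against tendrils gave 3.29 for FT and -2.81 for MADS8, neither called, and 77 genes called. Genes called with the block were 1283 for inflorescences against leaves, 1342 for tendrils against leaves, 4588 for the inflorescence slope and 6 for the difference of slopes. AP2 in inflorescences against leaves was 0.072 with it, and MADS8 in tendrils against leaves -1.19. The call of MADS8 in tendrils against leaves was also lost with a pseudocount of 0.1 (-1.27), no filter (-1.26), median-ratio scaling (-1.04) and only the organs compared (-1.26). With only the organs compared, 705 genes were called for tendrils against leaves and 5771 for the inflorescence slope. The difference of slopes was called for 1 gene with a pseudocount of 0.1, 12 with 5, 1 with no filter, 40 with node as a factor and 0 with voom. That difference for FT was -0.028 with a pseudocount of 0.1, -0.11 with quantile normalization and -0.10 with voom. The lines differed in 11 genes with no filter and 13 with no node term, and AP2 between them was 0.12 with quantile normalization and 0.12 with median-ratio scaling. The cause of these changes was not tested.

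Leaving out each library in turn gave 3675 to 7149 genes for inflorescences against tendrils (3683 and 3675 without the tendrils of node 1 and 3), 1001 to 3254 against leaves (fewest without the Pinot Meunier L2 pool), 978 to 3432 for tendrils against leaves (fewest without the 06C021V0046 pool, and 1421 and 1424 without the tendrils of node 1 and 3), 150 to 4534 for the inflorescence slope (at most 1834 without an inflorescence library other than 06C008V0003 of node 2, and at least 4529 without a tendril library), 0 to 1144 for the tendril slope (most without the node 1 library), 0 to 150 for the difference of slopes (most without the node 3 tendrils), and 1379 to 4486 between the lines (1432 and 1379 without 06C021V0046 and 06C008V0003 of node 2). MADS8 in tendrils against leaves ran from -1.66 to -1.06. Against leaves, inflorescences ran from -1.13 to 0.075 for AP2 and from -0.067 to 0.16 for FCA. The MADS8 inflorescence slope ran from -0.38 to 0.089. Tendril slopes ran from -0.32 to 1.28 for FT, -0.34 to 0.86 for MADS8 and -1.32 to 0.60 for AP2. Differences of slopes ran from -0.79 to 0.81 for FT, -1.05 to 0.15 for MADS8, -1.09 to 0.83 for AP2 and -0.30 to 0.12 for FCA. AP2 between the lines ran from -0.11 to 0.069. Without 1 tendril library the tendril slope rests on 2 libraries that are assumed to vary like the other organs. Without node 1 or node 3 the tendril mean is the node 2 library alone, so both runs give the same organ changes.

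The alternatives for the named flowering-list genes were added after the data were seen. The line comparison has no block setting, since the line is the replicate number. Depth limits MFT, and the tendril levels of FT, to the reads given.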
